A study of Mus musculus with 12 samples.

Results

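The comparison described here is between Myc-CaP cells exposed to the higher of 2 doses of interferon γ (IFNγ) and untreated cells. Its members are 4 of the 12 RNA-seq libraries of the series and were chosen by their sample titles: IFN2000 replicates 2 and 3, and Ctrl replicates 1 and 2. Myc-CaP is an established mouse prostate cancer cell line, labelled male and of the FVB/NJ strain, that carries a Myc transgene under a probasin promoter active in prostate epithelium, so all groups, Ctrl included, share that transgene and the same line. IFN2000 cells received IFNγ at 2000 pg for 48 h, as the titles write the dose (the study's text gives it per mL), and Ctrl cells received no agent over the same 48 h. IFN200, with 2 libraries, received IFNγ at 200 pg for 48 h and is used below to set the doses side by side. The remaining 6 libraries were treated with oxaliplatin (2 μM), alone or with either IFNγ dose. All 12 libraries entered the filter on counts, the scaling, the length and GC correction and the estimate of spread. They also entered the mean level by which named genes were chosen. The labels do not say whether libraries of a group came from separate cultures, so the p-values measure only the spread between these libraries, which may be technical. A second label, the agent, disagrees with the titles of all 3 single treatments: it assigns IFNγ at 200 pg to the libraries titled 2000 pg, oxaliplatin to those titled 200 pg, and IFNγ at 2000 pg to those titled oxaliplatin. The titles were used throughout, so the comparison of doses rests on them too. Set beside these labels, 26 interferon targets (GBPs, IRGs and immunoproteasome) averaged a log2 ratio to Ctrl of 2.67 and 2.48 in the libraries titled IFN2000, 0.71 and 0.70 in those titled IFN200, and 1.10 and 1.09 in those titled oxaliplatin alone. In the same order, 22 p53 targets averaged -0.06 and -0.02, -0.01 and 0.02, and 0.39 and 0.36.

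IFNγ is a cytokine released mainly by T cells and natural killer cells. It binds the receptor IFNGR1/IFNGR2, and the kinases JAK1 and JAK2 pass the signal to factors that bind the gamma-activated site (GAS) in target promoters. Among the first targets is IRF1, itself a transcription factor, which helps to switch on GTPases that attack intracellular pathogens, the immunoproteasome, and the genes for loading peptides onto MHC class I. In tumour cells the pathway is best known for making cells visible to CD8+ T cells.

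The 4 libraries held 18749975 and 20544590 counts (Ctrl) and 24367284 and 23496492 counts (IFN2000). Levels are given in CPM, that is reads per 1e6 of the TMM-adjusted total of a library. In these libraries 3 counts, the limit that a count of 0 allows, correspond to 0.128 to 0.167 CPM, for counting error only. The luminal markers Foxa1 (409 to 433 CPM), Hoxb13 and Krt8 were expressed in all 4 libraries, whereas the epithelial adhesion gene Epcam and the prostate genes Tmprss2 and Pbsn had 0 counts, Cdh1 had at most 1 count and Krt18 at most 4. The 2 IFN2000 libraries differed from each other by more than the 2 Ctrl libraries did: the chi-square of their counts per degree of freedom was 5.44 over 12196 genes, against 1.80 over 11830 genes for Ctrl.

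The pair differed in at least 2 measured ways. First, IFN2000 replicate 2 held reads of T cell genes. The 20 T cell markers summed to 31.8 CPM in that library, with 18 of the 20 detected, and to 1.34 CPM in IFN2000 replicate 3, 0.779 and 1.11 CPM in Ctrl, and between 0.619 and 3.94 CPM in the 11 libraries other than IFN2000 replicate 2. Gzmb, a cytotoxic granule protease, had 175 counts in replicate 2, the IL-2 receptor chain Il2ra had 115, the pan-leukocyte gene Ptprc had 64, and Ifng itself had 117. Each of these 4 genes had 0 counts in replicate 3, while Cd8a had 0 in all 4 libraries. Markers of natural killer cells summed to 0.514 CPM in replicate 2 and those of B cells to 0. In bulk libraries the number of cells of a type and the RNA per cell cannot be told apart. Second, log2 ratios to Ctrl fell with transcript length in both IFN2000 libraries, more in replicate 2; the values stand with the counts of calls below. The part of either in the results was not tested. Of the 107 genes named below with a call, 35 were not called without IFN2000 replicate 2, 36 without Ctrl replicate 1, 21 without Ctrl replicate 2 and 5 without IFN2000 replicate 3, and the values without replicate 2 stand beside those 35.

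Of 13177 genes tested with edgeR's quasi-likelihood test, 1105 (8.39%) were higher and 1116 (8.47%) lower in IFN2000 than in Ctrl at a Benjamini-Hochberg adjusted p under 0.05. Most of these differences were small: the median log2 fold change was 0.20 among the higher and -0.24 among the lower genes. The shares of 8.39% and 8.47% are the background for the list counts given below. At least 2-fold differences were found for 88 higher genes (0.668%) and 34 lower genes (0.258%), so the large changes were mainly rises. Among genes with a mean log2 CPM of at least 1 over the 12 libraries, the rises were led by interferon-inducible GTPases, immunoproteasome subunits and Nlrc5, and the falls by Mgp, Klhl24 and Mxd4. That mean includes the libraries with oxaliplatin, so genes near the floor in this comparison could pass. Gbp5, Rtp4 and Gm4841, among the 12 largest rises, had at most 0.685, 0.471 and 0.312 CPM in IFN2000 and 0 in Ctrl. Both IFN2000 libraries lay above both Ctrl libraries for 28.5% of all tested genes and below both for 27.8%. This held for 1102 of the genes called higher and 1115 of those called lower, the exceptions being Coro1a, Itgb2, Rac2 and Lrba. Without IFN2000 replicate 2, 439 genes (3.33%) were called higher and 412 (3.13%) lower, and 46 were called higher by at least 2-fold. Without Ctrl replicate 1 the numbers were 361 (2.74%), 371 (2.82%) and 48. Under each of 11 alternatives that tested them, 530 genes were called in the same direction as here, of which 254 were higher and 276 lower.

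**Figure D1:**
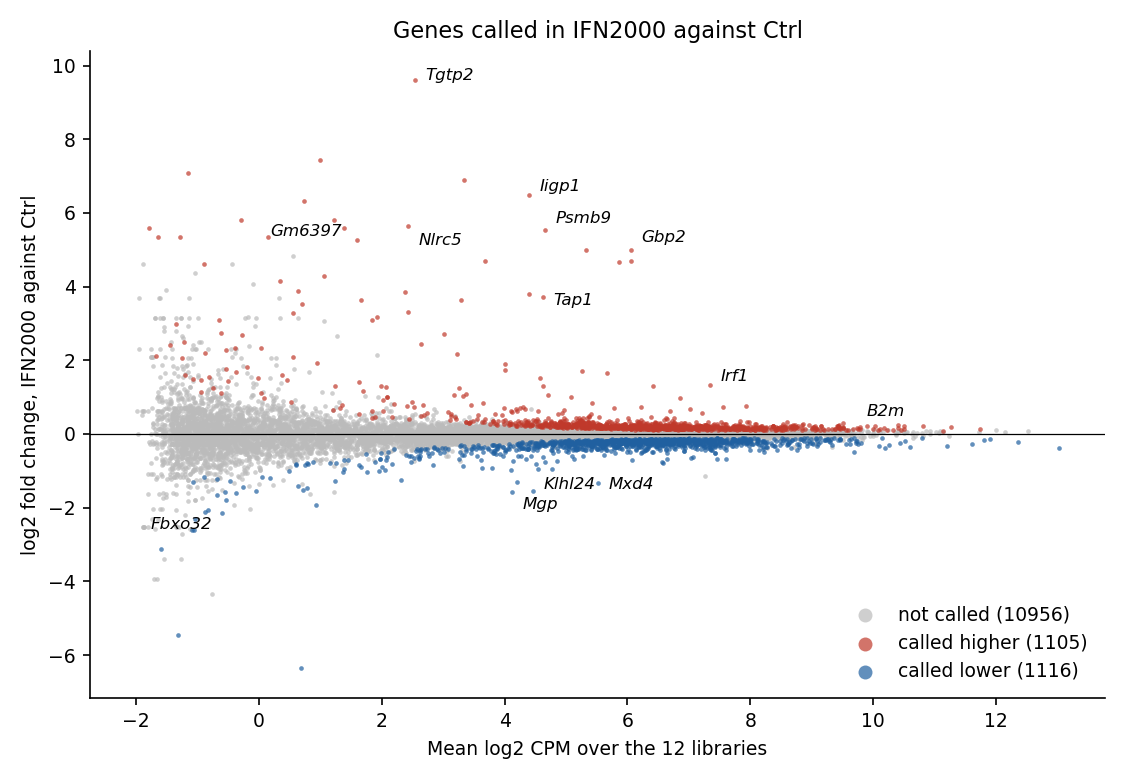
log2 fold change of IFN2000 against Ctrl (vertical axis) against mean log2 CPM over the 12 libraries (horizontal axis), 1 point per tested gene, red for the 1105 genes called higher and blue for the 1116 called lower. The rises reach far beyond the falls: Tgtp2, Iigp1, Psmb9 and Gbp2 lie above 4, whereas Mgp, Klhl24 and Mxd4, labelled among the falls, lie between -2 and -1.

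The immunity-related GTPases (IRGs), which assemble on the vacuoles of intracellular parasites, changed most. Of the 10 tested members 9 rose, with a list median log2 fold change of 4.15, where the median of all tested genes was 0.00. The list median was 3.39 with genes of at most 3 counts in each Ctrl library set to their lower bound. Iigp1 had 0 and 0.101 CPM in Ctrl and 5.18 and 5.27 CPM in IFN2000, at least 31.3-fold higher than the floor of 3 counts per Ctrl library (adjusted p = 5.18e-10, edgeR). Tgtp2 had no read in either Ctrl library and 4.15 and 4.46 CPM in IFN2000, at least 25.8-fold higher (adjusted p = 8.33e-10, edgeR). The IFN2000 replicates were close together for both genes, and neither was near the Ctrl range. Igtp rose from 2.00 and 1.98 CPM to 51.3 and 52.4 CPM (log2 fold change 4.70, SE 0.11), and Irgm2 from 1.34 and 1.17 to 32.0 and 31.6 CPM (4.67, SE 0.13). Ifi47 was at 0.779 and 0.608 CPM in Ctrl and at 9.85 and 7.37 CPM in IFN2000 (3.63, SE 0.24). Irgm1, a regulator of the other IRGs, was already expressed in untreated cells and rose less, from 61.4 and 58.6 to 118 and 116 CPM (0.97, SE 0.05). Tgtp1 rose by 1.53 (SE 0.10), Gm12250 by 1.29 (SE 0.40) and Gm4841, with 5 and 7 counts in IFN2000 against 0 in Ctrl, was at least 1.58-fold higher. The call of Gm12250 was made under 6 of 11 alternatives and lost without IFN2000 replicate 2 (adjusted p = 0.253, edgeR), with DESeq2 (0.0706) and with the replicate block (0.0574), and that of Gm4841 was lost without Ctrl replicate 1 (adjusted p = 0.0738, edgeR). Gm4951, with 1 count in each IFN2000 library, did not pass the test. Tgtp1 and Tgtp2 are near-identical copies, so how reads were divided between them is uncertain. The same holds for Igtp and Irgm2, which overlap on the plus strand of chromosome 11 (58199556 to 58207591 and 58199618 to 58222782, GRCm38). Their rises are therefore not separate results.

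The guanylate-binding proteins (GBPs), larger GTPases that coat bacteria and vacuoles and feed inflammasome activation, rose in 6 of 11 tested members (list median 3.68, or 1.97 with bounds). Gbp2 went from 1.00 and 0.912 CPM to 30.6 and 30.8 CPM (log2 fold change 5.00, SE 0.14, adjusted p = 5.32e-15 by edgeR). Gbp3 went from 0.278 and 0.405 CPM to 11.5 and 10.8 CPM (5.00, SE 0.18), and Gbp7 from 0.334 and 0.861 to 8.69 and 8.44 CPM (3.80, SE 0.21). In each of these 3 the replicates within a group were far closer than the groups. Gbp5 gave no read in Ctrl but 16 and 14 in IFN2000, at least 3.92-fold higher. Gbp4 and Gbp2b also rose but stayed under 1 CPM in both IFN2000 libraries. Gbp4 was not called without replicate 2 (adjusted p = 0.0522, edgeR), nor Gbp2b without replicate 3 (0.0527). The 5 members that did not pass (Gbp6, Gbp8, Gbp9, Gbp10 and Gbp11) had at most 10 counts in any of the 4 libraries. Without IFN2000 replicate 2, 8 of the 10 IRGs and 5 of the 11 GBPs were called higher.

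**Figure D2:**
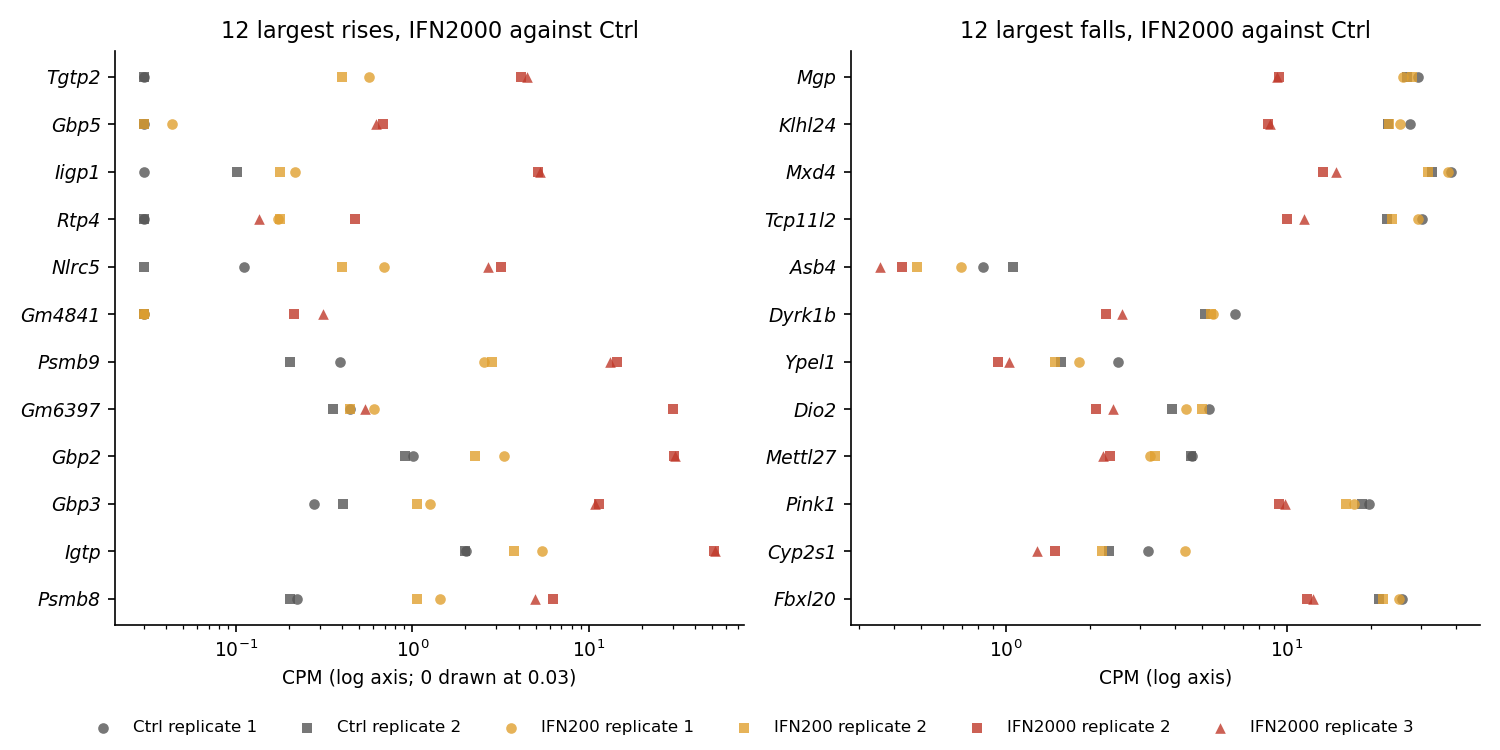
CPM on a log axis in the Ctrl, IFN200 and IFN2000 libraries for the 12 largest rises (left) and the 12 largest falls (right) among called genes with a mean log2 CPM of at least 1 and no overlap between groups, 1 symbol per library and 1 row per gene. For Igtp the IFN2000 symbols lie at 51.3 and 52.4 CPM against 2.00 and 1.98 in Ctrl, whereas for Gm6397 only replicate 2 lies apart, at 30.3 CPM against 0.536 in replicate 3.

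A second element of such promoters, the interferon-stimulated response element (ISRE), is bound by IRFs. GAS and ISRE were searched on either strand in RefSeq promoter windows of build GRCm38.p6, from 250 bases before to 50 after each gene's start, GAS as TTCNNNGAA and ISRE as GAAANNGAAA or its reverse complement TTTCNNTTTC. Windows were found for 55 of the 88 genes at least 2-fold higher: 15 (27.3%) held a GAS, 19 (34.5%) an ISRE and 25 (45.5%) either. Among all 9596 tested genes with a window the shares were 8.46%, 3.63% and 11.5%. Of the 811 matched genes called higher by less than 2-fold, 11.8% held either motif, and none of the 20 matched genes at least 2-fold lower did. A match is a description of the letters and not evidence of binding. Psmb9 and Tap1, both among the large rises, held neither motif in their windows. The 150 bases before the start are printed for 5 genes that rose and held a motif, for Psmb9, which rose and held none, and for Mxd4, which fell and held none. They read 5′ to 3′ on the strand of the gene, with GAS and ISRE matches in capitals and positions counted back from the start.
Tgtp2, chr11:49064213-49064362, minus strand, GAS at -81 and ISRE at -70: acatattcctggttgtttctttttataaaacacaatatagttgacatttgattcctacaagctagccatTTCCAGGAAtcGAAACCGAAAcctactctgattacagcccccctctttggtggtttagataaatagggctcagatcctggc
Igtp, chr11:58199406-58199555, plus strand, GAS at -45 and ISRE at -34: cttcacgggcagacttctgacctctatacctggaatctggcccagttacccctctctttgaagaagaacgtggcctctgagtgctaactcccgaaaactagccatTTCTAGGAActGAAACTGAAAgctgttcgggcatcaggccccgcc
Gbp2, chr3:142620513-142620662, plus strand, ISRE at -59: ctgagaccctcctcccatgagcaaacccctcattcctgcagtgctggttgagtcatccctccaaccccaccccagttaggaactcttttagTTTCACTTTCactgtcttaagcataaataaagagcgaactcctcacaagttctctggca
Irf1, chr11:53769864-53770013, plus strand, GAS at -90: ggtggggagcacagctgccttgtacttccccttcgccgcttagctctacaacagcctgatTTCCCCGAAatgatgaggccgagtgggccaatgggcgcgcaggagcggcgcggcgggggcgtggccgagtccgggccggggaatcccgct
Psmb8, chr17:34198045-34198194, plus strand, GAS at -97: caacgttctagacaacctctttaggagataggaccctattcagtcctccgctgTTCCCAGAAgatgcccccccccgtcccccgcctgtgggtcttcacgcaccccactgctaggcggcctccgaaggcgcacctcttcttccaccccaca
Psmb9, chr17:34187331-34187480, minus strand, no match: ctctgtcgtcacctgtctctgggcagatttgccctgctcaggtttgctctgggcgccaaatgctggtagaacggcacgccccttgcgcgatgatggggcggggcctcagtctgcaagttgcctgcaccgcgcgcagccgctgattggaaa
Mxd4, chr5:34187711-34187860, minus strand, no match: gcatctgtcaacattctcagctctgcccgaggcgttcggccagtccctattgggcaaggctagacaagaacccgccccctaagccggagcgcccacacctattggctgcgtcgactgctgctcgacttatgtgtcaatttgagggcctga

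In Tgtp2 and Igtp the GAS and the ISRE stood side by side, the ISRE beginning 11 bases after the start of the GAS in each. Irf1 had a second RefSeq start with no match in its window.

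The receptor and kinase genes changed little, whereas several IRFs rose. Ifngr1, which encodes the ligand-binding receptor chain, was at 34.7 and 37.4 CPM in Ctrl and 37.7 and 36.8 CPM in IFN2000, and its partner Ifngr2 was at 1.34 and 0.912 CPM against 0.985 and 0.893 CPM. Neither passed the test, and for each the groups overlapped. Stat3 rose by 0.21 (SE 0.05; adjusted p = 0.0518 by edgeR without Ctrl replicate 2), and Jak2 fell by 0.12 on the log2 scale (SE 0.04), a call made under only 2 of 11 alternatives and lost without IFN2000 replicate 2 (adjusted p = 0.13, edgeR). Irf1 rose from 38.6 and 37.0 to 94.6 and 93.9 CPM (log2 fold change 1.32, SE 0.05, adjusted p = 4.54e-13 by edgeR), and Irf9, which binds the ISRE, from 8.29 and 8.01 to 16.3 and 17.6 CPM (1.06, SE 0.09). Irf8, known mainly from myeloid and lymphoid cells, was at 0.668 and 0.456 CPM in Ctrl and at 1.84 CPM in IFN2000 replicate 2 but 0.893 CPM in replicate 3. Its log2 fold change of 1.3 became 0.68 without replicate 2 (adjusted p = 0.424, edgeR).

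Of 9 tested negative regulators of the pathway 3 rose and 1 fell. Socs1, which inhibits JAK kinases, rose from 1.17 and 1.27 to 2.61 and 3.30 CPM (log2 fold change 1.27, SE 0.23, adjusted p = 0.000906 by edgeR). Usp18, which blocks type I interferon receptor signalling, rose by 1.42 (SE 0.44) at under 1 CPM in all 4 libraries, and was not called without IFN2000 replicate 2 (adjusted p = 0.279, edgeR). The phosphatase gene Ptpn2 rose by 0.19 (SE 0.06) and Pias1 fell by 0.14 (SE 0.05), and both calls were lost after a correction for transcript length and GC content (adjusted p = 0.0956 and 0.193, edgeR) and without IFN2000 replicate 2 (0.448 and 0.167). Socs1 alone of these 4 was called under all 11 alternatives.

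Genes at several steps of antigen presentation rose, by very different amounts. Nlrc5, the transactivator of MHC class I genes, had 0.111 and 0 CPM in Ctrl and 3.17 and 2.68 CPM in IFN2000, at least 17.5-fold higher. Peptides for class I are cut by the immunoproteasome, in which Psmb8, Psmb9 and Psmb10 replace the constitutive catalytic subunits. All 5 genes of that list rose. Psmb9 went from 0.389 and 0.203 to 14.6 and 13.2 CPM (log2 fold change 5.55, SE 0.20, adjusted p = 1.78e-13 by edgeR) and Psmb8 from 0.223 and 0.203 to 6.30 and 4.95 CPM (4.70, SE 0.28). Psmb10 was at 29.5 and 29.7 CPM before treatment and reached 75.0 and 70.4 CPM (1.3, SE 0.06). The activator subunits Psme1 and Psme2, which open the proteasome gate, rose by 0.67 (SE 0.05) and 0.74 (SE 0.04). All 5 stayed called without IFN2000 replicate 2, without Ctrl replicate 1 and after the length and GC correction.

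Of 17 tested class I genes 10 rose. The peptide transporter subunit Tap1 went from 1.00 and 1.17 to 14.8 and 13.9 CPM (log2 fold change 3.71, SE 0.16) and its partner Tap2 from 4.23 and 5.47 to 15.1 and 16.7 CPM (1.70, SE 0.11). Psmb9 and Tap1 lie head to head on chromosome 17 (34181987 to 34187764 and 34187553 to 34197225, GRCm38) and overlap on opposite strands, so some of their reads may be shared. The editing chaperone Tapbpl rose by 1.01 (SE 0.07), tapasin (Tapbp) by 0.77 (SE 0.04) and the peptide-trimming protease Erap1 by 0.56 (SE 0.04). The heavy chains changed less: H2-K1 was at 88.4 and 85.9 CPM in Ctrl and 114 and 104 CPM in IFN2000 (0.33, SE 0.05), and H2-D1 at 247 and 235 against 308 and 294 CPM (0.32, SE 0.04). The groups did not overlap for either. H2 genes resemble each other and the reference genome is of another strain than the cells, so their counts are uncertain. B2m, the light chain, was at 735 and 707 against 817 and 769 CPM (0.14, SE 0.04), and the chaperone Calr rose by 0.11 (SE 0.04). After the length and GC correction B2m no longer passed (0.04, adjusted p = 0.349, edgeR), nor did Calr (adjusted p = 0.117, edgeR), and neither passed without IFN2000 replicate 2 (adjusted p = 0.162 and 0.305, edgeR). H2-Q7, below the filter, gave 28 reads in IFN2000 replicate 2 but 1 in each of the other 3 libraries.

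Class II and chemokine genes stayed low. Ciita, the class II transactivator, had at most 0.0507 CPM in Ctrl and 0.171 and 0.179 CPM in IFN2000, and Cd74, the invariant chain, had 0.111 and 0.0507 against 0.385 and 0.357 CPM. None of the 4 tested class II genes passed edgeR's test or DESeq2, and 2 had an unadjusted p under 0.05. Of 7 tested chemokine and checkpoint genes 2 rose. Ido1, which degrades tryptophan, rose from 3.67 and 3.60 to 17.1 and 15.4 CPM (log2 fold change 2.16, SE 0.11, adjusted p = 7.09e-11 by edgeR). Ccl5, a T cell chemokine that T cells also make, gave 8 reads in IFN2000 replicate 2 but only 2 in replicate 3, and was not called without replicate 2 (adjusted p = 0.277, edgeR). Cd274, which encodes PD-L1, was at 1.84 and 1.42 CPM in Ctrl and 3.30 and 1.87 CPM in IFN2000 (adjusted p = 0.0603, edgeR), and the T cell attractant Cxcl10 at 0.223 and 0.101 against 0.300 and 0.357 CPM (adjusted p = 0.297, edgeR).

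Genes of the antiviral response moved in both directions. Of 22 tested members 12 rose and 2 fell, with a list median log2 fold change of 0.67. Oasl2 was at 0.334 and 0.507 CPM in Ctrl and 3.38 and 2.23 CPM in IFN2000 (2.72, SE 0.34), and Xaf1, a pro-apoptotic interferon target, at 0.223 and 0.355 against 1.33 and 1.92 CPM (2.45, SE 0.36). Parp14 rose by 0.85 (SE 0.08) and the antibody receptor Trim21 by 0.84 (SE 0.13). The RNA-binding interferon target Ifit2 fell from 52.6 and 55.9 to 42.4 and 45.8 CPM (-0.30, SE 0.05), and Samhd1, which depletes nucleotides, from 438 and 405 to 366 and 388 CPM (-0.16, SE 0.04). Ifit2 was called lower under all 11 alternatives and Samhd1 under 9, but not without IFN2000 replicate 2 (adjusted p = 0.0996, edgeR).

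Of 9 tested cell death genes 4 rose. The pyroptosis pore gene Gsdmd was at 1.22 and 1.93 CPM in Ctrl and 3.60 and 2.81 CPM in IFN2000 (log2 fold change 1.01, SE 0.23), Tnfsf10 (TRAIL) at 3.56 and 4.51 against 7.02 and 5.94 CPM (0.68, SE 0.14), and the necroptosis effector Mlkl at 30.4 and 29.9 against 43.2 and 40.9 CPM (0.48, SE 0.06). Casp8, which starts the caspase cascade below death receptors, rose by 0.23 (SE 0.06). Mlkl was called under all 11 alternatives. Gsdmd and Casp8 were not called without IFN2000 replicate 2 (adjusted p = 0.0752 and 0.0715, edgeR), and Tnfsf10 was not called without Ctrl replicate 1 (0.0599). The list held 2 genes called higher without IFN2000 replicate 2 and 1 without Ctrl replicate 1. Of 11 tested NF-κB genes 3 rose: Traf1, Cxcl1 (0.70, SE 0.20) and Bcl3 (0.55, SE 0.08). Only Bcl3 kept the call without IFN2000 replicate 2. Cxcl1 lost it in that fit (adjusted p = 0.131, edgeR), with DESeq2 (0.103) and with the replicate block (0.101). Traf1 was at 3.13 CPM in IFN2000 replicate 2 and 0.134 CPM in replicate 3, and its log2 fold change of 4.29 became 0.72 without replicate 2 (adjusted p = 0.79, edgeR).

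**Figure D3:**
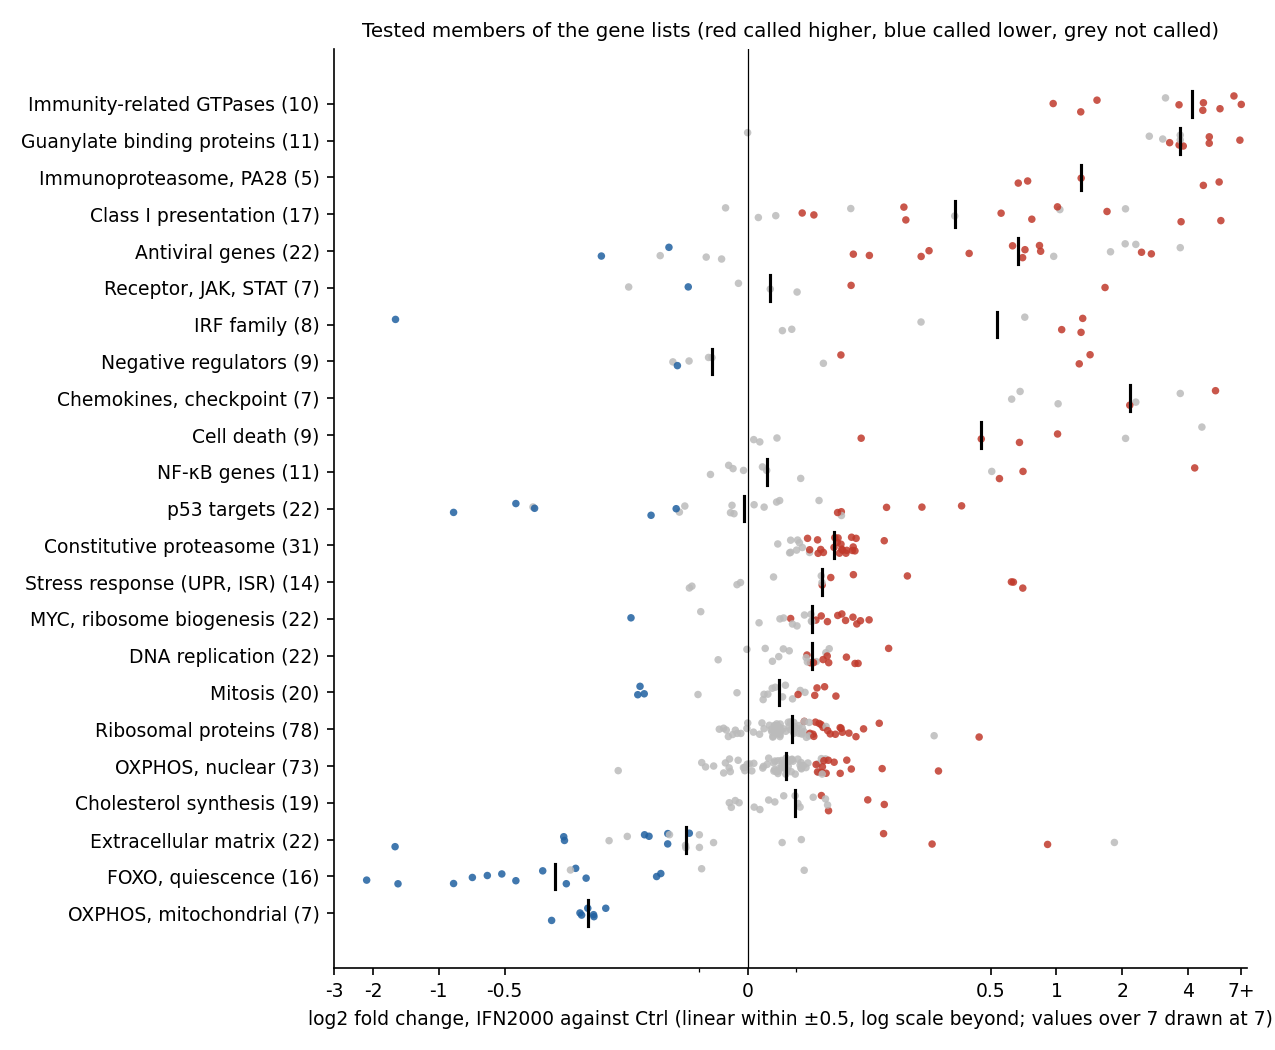
log2 fold change of IFN2000 against Ctrl for each tested member of 23 gene lists, the number tested in brackets, red for members called higher, blue for members called lower and grey for the others; black bars mark list medians, and the axis is linear within 0.5 of 0 and logarithmic beyond. Medians run from 4.15 for the immunity-related GTPases to -0.40 for the FOXO and quiescence genes.

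Among called genes with a mean log2 CPM of at least 1 and no overlap between groups, Mgp had the largest fall. Mgp, an inhibitor of matrix calcification, was at 29.3 and 26.8 CPM in Ctrl and 9.38 and 9.28 CPM in IFN2000 (log2 fold change -1.58, SE 0.10, adjusted p = 1.44e-09 by edgeR). Klhl24, an adaptor of a ubiquitin ligase, was at 27.5 and 22.9 against 8.61 and 8.70 CPM (-1.54, SE 0.10), and Mxd4, a MAX partner that opposes MYC, at 38.6 and 32.9 against 13.5 and 15 CPM (-1.32, SE 0.09). In all 3 the IFN2000 libraries lay close together and well below both Ctrl libraries. Tcp11l2 fell by 1.3 (SE 0.13), Dyrk1b, a kinase associated with quiescence, by 1.26 (SE 0.19), Mettl27 by 1.00 (SE 0.16), Pink1, which marks damaged mitochondria for removal, by 0.99 (SE 0.08) and Fbxl20 by 0.95 (SE 0.09). These 8 genes were called lower under all 11 alternatives. Asb4, Ypel1, Dio2 (a thyroid hormone deiodinase) and Cyp2s1, the other 4 of the 12 largest falls in that set, were each below 6 CPM in all 4 libraries and lost the call under 7, 3, 2 and 4 alternatives. Asb4, Ypel1 and Cyp2s1 were not called without IFN2000 replicate 2 (adjusted p = 0.125, 0.0847 and 0.0803, edgeR), and Dio2 was not called without Ctrl replicate 1 (0.0875).

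Klhl24 belongs to a list of 16 genes that FOXO factors activate or that mark quiescence, of which 13 fell and the other 3 did not pass (median log2 fold change -0.40). Over all tested genes 8.47% were called lower. The list was chosen with earlier results of these data known. Its median transcript length was 4544.5 bases, against 3132 bases for all tested genes. The ubiquitin ligase gene Fbxo32 gave 16 and 21 reads in Ctrl but 4 and 6 in IFN2000 (-2.14, SE 0.47), a larger fold than that of Mgp at a far lower level. Sesn3, a stress-induced inhibitor of growth signalling, went from 60.4 and 56.6 to 32.9 and 39.0 CPM (-0.70, SE 0.07), Ccng2, an atypical cyclin of resting cells, from 79.5 and 72.6 to 49.7 and 56.7 CPM (-0.52, SE 0.08), and Ypel3 from 5.62 and 6.03 to 3.94 and 3.75 CPM (-0.60, SE 0.15). The list holds Foxo1, Foxo3 and the cell cycle inhibitor Cdkn1b, all 3 called lower. In 15 of the 16, and in 27.8% of all tested genes, both IFN2000 libraries lay below both Ctrl libraries. After the length and GC correction 12 were called lower, and without IFN2000 replicate 2 or without Ctrl replicate 1 the number was 7. Fbxo32 and Ypel3 were among those not called without replicate 2 (adjusted p = 0.0557 and 0.0532, edgeR).

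Part of each growth list was called higher, by small amounts. Of 22 genes of ribosome biogenesis and other MYC targets 11 rose and 1 fell (median log2 fold change 0.13). Nolc1, a nucleolar chaperone, was at 550 and 581 CPM in Ctrl and 675 and 654 CPM in IFN2000 (0.23, SE 0.04), Nop56, of the box C/D ribonucleoproteins, at 315 and 319 against 381 and 361 CPM (0.22, SE 0.04), and Rrp9 rose by 0.25 (SE 0.05). Cad, which starts pyrimidine synthesis and has a long transcript, fell by 0.24 (SE 0.05), or by 0.11 after the correction. Among the partners of MYC, Mnt fell by 0.25 (SE 0.06) and Max rose by 0.12 (SE 0.04), the latter under 3 of 11 alternatives. Neither was called without IFN2000 replicate 2 (adjusted p = 0.0513 and 0.15, edgeR). Of 22 DNA replication genes 10 rose (median 0.13): Ccne1, the cyclin of S phase entry, by 0.29 (SE 0.07), the helicase subunit Mcm5 by 0.23 (SE 0.04), the ribonucleotide reductase subunit Rrm2 by 0.22 (SE 0.04) and Pcna by 0.20 (SE 0.04). Without IFN2000 replicate 2 these 2 lists held 6 and 3 genes called higher, and without Ctrl replicate 1, 4 and 3. Ccne1 was not called without IFN2000 replicate 2 (adjusted p = 0.0922, edgeR), nor were Rrp9 and Pcna without Ctrl replicate 1 (0.0571 and 0.0525). Mitotic genes divided: of 20 tested 5 rose and 3 fell. After the length and GC correction 3 were called higher and 1 lower, and with the replicate block 0 were called in either direction. Ube2c was among those that rose (0.18, SE 0.05), whereas Mki67, Cenpe and Cenpf, which have long transcripts, fell. None of the last 3 passed after the correction (adjusted p = 0.303, 0.0510 and 0.531, edgeR), and without IFN2000 replicate 2 they did not pass either (0.597, 0.240 and 0.355), nor did Ube2c (0.0973).

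Small differences were also seen across the constitutive proteasome. Of 31 subunits 22 rose, and in all 31 both IFN2000 libraries lay above both Ctrl libraries (median log2 fold change 0.18). Over all tested genes 8.39% were called higher and 28.5% lay above Ctrl in this way. The median transcript length of the list was 1819 bases, against 3132 bases for all tested genes. Psma2 was at 208 and 202 CPM in Ctrl and 258 and 240 CPM in IFN2000 (0.28, SE 0.04), Psmd4 at 264 and 263 against 318 and 298 CPM (0.22, SE 0.04), and Psmb6, the subunit that Psmb9 replaces, at 94.7 and 96.1 against 116 and 106 CPM (0.22, SE 0.05). After the correction 18 were called higher, and 8 without IFN2000 replicate 2 or 10 without Ctrl replicate 1. Psmb6 was not called in either of these fits (adjusted p = 0.0842 and 0.0620, edgeR). Of 14 genes of the unfolded protein and integrated stress responses 7 rose. Trib3, a target of ATF4, rose from 17.0 and 16.1 to 26.9 and 26.7 CPM (0.70, SE 0.07), the stress factor Atf3 by 0.64 (SE 0.07), the glutathione-degrading enzyme Chac1 by 0.62 (SE 0.07) and asparagine synthetase, Asns, by 0.33 (SE 0.04). These 4 were called under all 11 alternatives. The p53 target list moved both ways, with 5 of 22 higher and 5 lower: Sesn2, also an ATF4 target, rose by 0.44 (SE 0.07) and Phlda3 by 0.36 (SE 0.09), whereas Trp53inp1 fell by 0.86 (SE 0.20) and Sesn1 by 0.48 (SE 0.05). Without IFN2000 replicate 2 the p53 list gave 2 higher and 1 lower. Phlda3 was then not called (adjusted p = 0.0554, edgeR), and the difference of Trp53inp1 was -0.60 (0.102).

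All 7 mitochondrially encoded respiratory genes that were tested fell, by a median of 0.33 on the log2 scale. Summed CPM over these genes was 7693 and 7703 in Ctrl and 5719 and 6590 in IFN2000. mt-Nd6, on the other strand of the mitochondrial genome, was at 264 and 265 CPM in Ctrl and 190 and 210 CPM in IFN2000 (-0.40, SE 0.07), and mt-Co1 at 2460 and 2442 against 1818 and 2117 CPM (-0.32, SE 0.06). The other 6 mitochondrial genes of the list were listed at 0 in these libraries. Of 73 nuclear-encoded respiratory genes 13 were called higher and none lower, and of 78 ribosomal protein genes 19 and none, and the remaining members of both lists did not pass. Their list medians were 0.08 and 0.09. Both lists hold short transcripts, and after the length and GC correction the medians were 0.02 and 0.03, with 8 higher and 2 lower, and 12 higher and 4 lower. The 7 mitochondrial calls stayed after the correction, and 4 of them without IFN2000 replicate 2 or 5 without Ctrl replicate 1. Each of the other 2 lists gave 3 higher without IFN2000 replicate 2, where 3.33% of all tested genes were.

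In the matrix list 8 of 22 genes fell and 3 rose. Fn1, fibronectin, was at 6203 and 5491 CPM in Ctrl and 3946 and 5050 CPM in IFN2000 (log2 fold change -0.38, SE 0.08), the laminin chain Lamb2 at 141 and 142 against 106 and 112 CPM (-0.38, SE 0.05), whereas the protease inhibitor Timp1 rose from 43.2 and 44.4 to 58.6 and 55.5 CPM (0.38, SE 0.05) and Col16a1 rose by 0.91 (SE 0.27). Col16a1 was not called without IFN2000 replicate 2 (adjusted p = 0.14, edgeR), nor Fn1 without Ctrl replicate 1 (0.0753). After the correction 4 matrix genes were called lower and 3 higher, and without IFN2000 replicate 2 the numbers were 3 and 2. Of the luminal genes Krt19 rose by 0.18 (SE 0.05), a call made under 6 of 11 alternatives and not without IFN2000 replicate 2 (adjusted p = 0.25, edgeR). Pdgfra, in the fibroblast marker list, fell from 17.3 and 13.2 to 10.1 and 9.86 CPM (-0.61, SE 0.11). With Pdgfra included, that list summed to 29.7 and 28.1 CPM in Ctrl and 24.8 and 23.4 CPM in IFN2000. The sums are therefore not separate from the fall of Pdgfra, and the other 2 tested members of the list were not called. Of 19 cholesterol synthesis genes 4 rose, Cyp51 by 0.28 (SE 0.04).

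The calls were spread unevenly over transcript length, taken as the longest annotated transcript of a gene. The median was 2454 bases for genes called higher, 5480 bases for genes called lower and 3132 bases for all tested genes. When genes were divided into quintiles of length, in the shortest 10.3% were called higher and 1.88% lower, and in the longest 2.53% and 24.0%. The median log2 ratio to Ctrl went from 0.10 in the shortest to -0.15 in the longest quintile in IFN2000 replicate 2 and from 0.05 to -0.05 in replicate 3, and replicate 2 had the larger ratio for 852 of the 1105 higher genes and the lower one for 892 of the 1116 lower genes. Across 13043 genes, which are not independent replicates, Spearman's rho of log2 ratio with length was -0.35 and -0.19. With spline terms for length and GC content, 1154 genes (8.76%) were higher and 909 (6.9%) lower, and 1521 of the 2221 calls (68.5%) remained in the same direction. The share called lower in the longest quintile was then 9.24%, and the largest changes were little altered: Tgtp2 was at 9.58, Iigp1 at 6.45, Mgp at -1.67, Klhl24 at -1.41 and Mxd4 at -1.28 on the log2 scale. The part of the length trend in the small changes was not tested further.

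**Figure D4:**
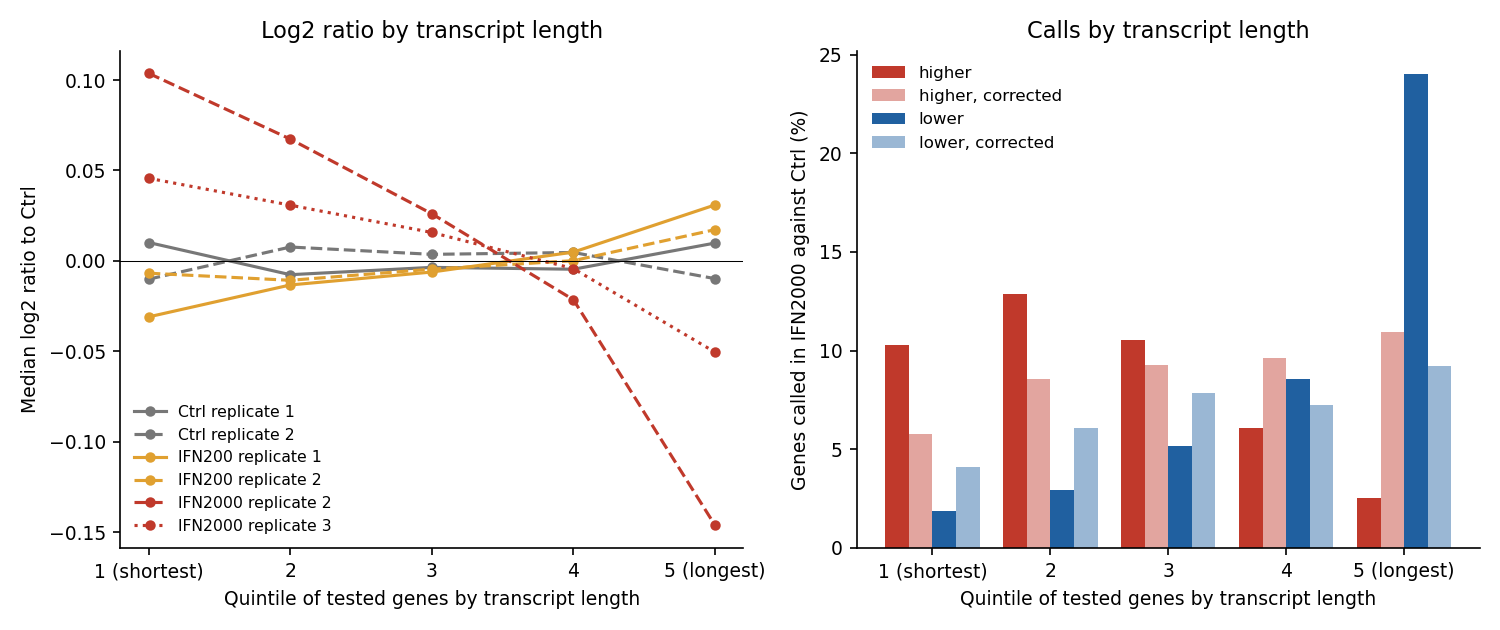
Left, median log2 ratio to Ctrl by quintile of transcript length, 1 line per library; right, percentage of genes in each quintile called higher or lower in IFN2000 against Ctrl, before and after the length and GC correction. In IFN2000 replicate 2 the median falls from 0.10 to -0.15, and the share of genes called lower in the longest quintile is 24.0% before and 9.24% after correction.

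Gene by gene, the 2 IFN2000 libraries gave similar ratios for the interferon targets and very different ones for a small set. There were 16 genes called higher whose level was over 2-fold higher in replicate 2 than in replicate 3: Arhgap45, Arhgef3, Ccdc88b, Ccl5, Coro1a, Fermt3, Fmnl1, Gm6397, Il2rb, Itgb2, Lag3, Mapkapk3, Rac2, Rtp4, Trac and Traf1. Several are known from T cells, such as the T cell receptor constant gene Trac, the IL-2 receptor chain Il2rb and the inhibitory receptor Lag3. The processed pseudogene Gm6397 had 30.3 CPM in replicate 2 and 0.536 CPM in replicate 3, against 0.445 and 0.355 CPM in Ctrl, and its log2 fold change of 5.27 became 0.43 without replicate 2 (adjusted p = 0.735, edgeR). Rtp4 had 0.471 and 0.134 CPM against 0 in Ctrl and was not called without replicate 2 (adjusted p = 0.129, edgeR), nor was Trac (adjusted p = 0.403, edgeR).

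**Figure D5:**
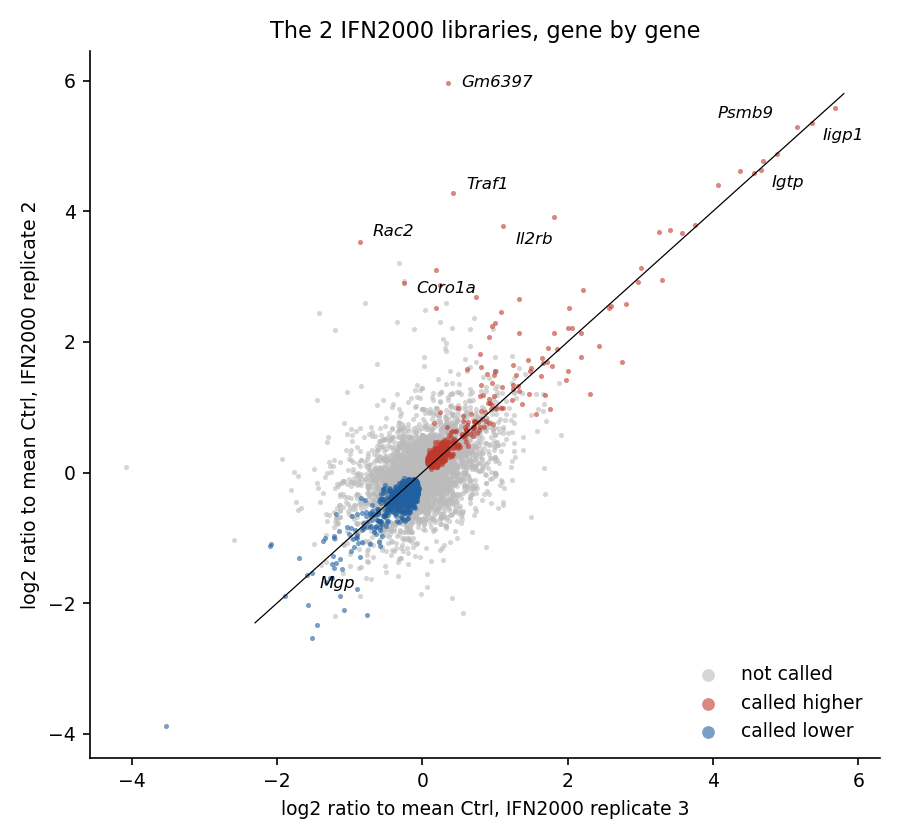
log2 ratio to mean Ctrl in IFN2000 replicate 2 (vertical axis) against replicate 3 (horizontal axis), 1 point per tested gene, with the line of equal ratios. Psmb9, Igtp and Iigp1 lie near the line, and Gm6397, Traf1, Rac2, Il2rb and Coro1a lie far above it.

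IFN200 libraries gave smaller values for most of the same interferon targets. IFN200 shares its controls with IFN2000, so levels are set side by side and their agreement is not counted as a result. IFN200 replicate 1 held reads of heart muscle genes, with 9 of 10 markers detected. These markers summed to 8.77 CPM in that library and 1.15 CPM in IFN200 replicate 2. The sums were 0.835 and 1.27 CPM in Ctrl, 1.20 and 0.982 CPM in IFN2000, and 3.15 to 5.94 CPM in the libraries with oxaliplatin. The part of these reads in the comparison of doses was not tested. Against Ctrl, edgeR called 15 genes (0.114%) higher in IFN200 and 0 lower (438 were lower at an unadjusted p under 0.05, and DESeq2 called 12 higher and 1 lower). The 15 were Erap1, Gbp2, Gbp3, Gbp7, Igtp, Irgm2, Lgals3bp, mt-Co1, Parp14, Psmb8, Psmb9, Tap1, Tap2, Tapbp and Tgtp2. Psmb9 was at 2.56 and 2.83 CPM in IFN200 against 14.6 and 13.2 CPM in IFN2000, a log2 difference between doses of 2.36 (SE 0.11, adjusted p = 3.57e-11 by edgeR). Iigp1 was at 0.217 and 0.177 CPM, 4.69 lower than at the high dose (SE 0.28), and Irf1 at 47.1 and 42.9 CPM, 1.07 lower (SE 0.05). B2m, at 810 and 779 CPM in IFN200, was within the IFN2000 range of 817 and 769. Mgp (25.9 and 28.0 CPM), Klhl24 (25.3 and 23.2 CPM) and Mxd4 (37.5 and 31.9 CPM) overlapped their Ctrl range in IFN200 and differed between doses by -1.53 (SE 0.10), -1.48 (SE 0.10) and -1.29 (SE 0.09). Between the doses 1493 genes (11.3%) were higher and 1450 (11%) lower in IFN2000. The length trend differed in sign between the doses, as given below. With the length and GC correction 2289 genes were called between the doses, against 2943 without it.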

How the data were processed

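Raw counts of reads for each gene were deposited for the 12 libraries of poly(A) RNA; per the labels a stranded kit and STAR 2.7.3a were used. The study's methods name STAR alignment to GRCm38 and featureCounts, whereas the labels list RSEM 1.3.0; the counts were whole numbers, and the strand setting was not given in the sources used here. Of 55216 genes 28300 had no count. Groups followed the sample titles. Counts were TMM-scaled and tested with edgeR 4.0.16 (R 4.3.3) by glmQLFit and glmQLFTest over all 12 libraries with a mean per group, after filterByExpr (minimum count 10, total 15), and p-values were adjusted over all 13177 genes. With 2 against 2 libraries an exact permutation test cannot go below p = 0.333. Scripts were tested on simulated data. The SE was derived from the F statistic as the absolute log2 fold change over its root.

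Named genes were the 12 largest rises and falls among called genes with a mean log2 CPM of at least 1 over the 12 libraries and no overlap between groups, the 6 largest after correction, list members by size of change or as members not called, and Iigp1, Gbp2, Mgp and Mxd4. Single libraries' genes and low-ranking list members (H2-K1, H2-D1, B2m, Calr, Cad, Mki67, Cenpe, Cenpf, Psmb6, Pdgfra and the 16 genes higher in replicate 2) were added after their values were seen. Members and lists were chosen with earlier results of these data known. Lower bounds set the Ctrl level at 3 counts per library, for genes with at most 3 counts in each Ctrl library. Transcript lengths came from GENCODE on GRCm38. Alternatives were upper-quartile scaling, DESeq2 1.42.0, other count filters, the 4 libraries alone, a replicate block, a correction by splines (4 degrees of freedom each for length and GC content) and leaving out each library. List counts without single libraries were added after seeing the data. Some genes are not reported here.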

Additional observations from a re-analysis of the deposited data

Results flagged for a closer look

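The length trend differed in sign between the doses. Across genes, Spearman's rho between transcript length and the ratio to Ctrl was -0.35 and -0.19 in IFN2000 replicates 2 and 3 and 0.15 and 0.071 in IFN200 replicates 1 and 2, all against the same Ctrl libraries. The difference was not tested.

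The mitochondrially encoded genes also moved in opposite directions from Ctrl. Their summed level was 5719 and 6590 CPM in IFN2000 and 9687 and 9755 CPM in IFN200, with Ctrl at 7693 and 7703 CPM. The difference between the sums was not tested; gene by gene, edgeR called all 7 tested members lower in IFN2000 than in IFN200, mt-Co1 by 0.68 on the log2 scale (SE 0.06, adjusted p = 9.5e-07) and mt-Nd6 by 0.70 (SE 0.07).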

How the results depend on the processing

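With 2 libraries per group, single libraries moved the counts, and a lone library was then assumed to vary like the other groups. The 2221 genes called became 732 without Ctrl replicate 1, 1313 without Ctrl replicate 2, 851 without IFN2000 replicate 2 and 2897 without IFN2000 replicate 3. Over these 4 fits, genes higher ran from 361 to 1614, lower from 371 to 1283, at least 2-fold higher from 46 to 124 and at least 2-fold lower from 9 to 37. Genes called between the doses ran from 1190 to 3399 when 1 of the IFN200 or IFN2000 libraries was left out. DESeq2 called 1402 genes (604 lower, 13 of them at least 2-fold) and 1919 between the doses, as did a fit of only those 4 libraries (1919). Without a count filter 182 genes were at least 2-fold higher, and with a mean of at least 50 counts 45 were higher and 8 lower by at least 2-fold, with fewer genes tested. Upper-quartile scaling gave 1422 higher and 968 lower. The cause of these shifts was not tested.

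Replicate numbers were shared only in part (Ctrl 1 and 2, IFN2000 2 and 3). Deviations of same-numbered libraries from their group means correlated at -0.0456 to 0.045 over 21 pairs. With 2 libraries per group the deviations of a group are equal and opposite, so some of these values repeat. No pairing by number showed in them, and whether libraries shared a batch was not tested. With the replicate block 1071 genes were called (508 higher, 563 lower, 13 of them at least 2-fold lower), and 1588 between the doses.

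Spearman's rho with length in IFN2000 replicate 2 was -0.48 with the filter of 50 counts. Of 113 named genes 66 kept direction and call under every alternative that tested them, 43 lost the call under at least 1 and 2 gained it under at least 1. Ifngr1 (-0.011 after the length and GC correction) and Ifngr2 (-0.50 to 0.049 when single libraries were left out), neither called, changed sign.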
